A study of Mus musculus with 8 samples.

Results

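The genes that make Hedgehog signals and let them leave the cell were followed in whole mouse embryos at embryonic day 9.5. They are the 3 ligands Shh, Ihh and Dhh, the acyltransferase Hhat, the transporter Disp1 and the secreted proteins Scube1, Scube2 and Scube3. These 8 genes were chosen by symbol, all 8 were present among the 41709 symbols of the deposited table, and 7 belonged to the 13596 genes carried into the test, those at 1 TPM (a level scaled by gene length and by library total) or more in 4 or more of the 8 embryos. The mutant group was 4 embryos homozygous for K399A in Smo (SmoK399A/K399A), and the wild-type (WT) group was 4 Smo+/+ embryos from the same kind of cross between SmoK399A/+ parents. Smo encodes Smoothened, the membrane protein that passes the Hedgehog signal into the receiving cell, so that the genes described here act upstream of the altered protein. Every library held 1 embryo. More than 1 litter was used, and which embryo belongs to which litter is not recorded in the labels. Smo itself was at 125.7 to 156.2 TPM in mutants and 132.3 to 146.7 TPM in WT embryos, and since a point substitution need not alter transcript level, this does not check the genotypes.

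A Hedgehog ligand is made as a precursor that cuts itself, and its signalling part then carries cholesterol at one end and, added by Hhat, palmitate at the other. Disp1 (Dispatched) hands this lipid-bearing protein out of the producing cell, and SCUBE proteins take it up outside. In the embryo at this stage Shh is known from the notochord, the floor plate of the neural tube, the gut endoderm and the posterior limb bud. Ihh is known from the endoderm of yolk sac and gut and later from cartilage, and Dhh from the Sertoli cells of the testis and the Schwann cells of nerves.

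The 3 ligands are paralogs, and so are the 3 Scube genes, so the longest stretches of identical bases that their GENCODE M21 transcripts share are shown first, since these set whether sequencing reads could be split between them. The runs are printed in lower case, in transcript direction.
Shh and Ihh: atgaaccagtggcctgg
Shh and Dhh: ttcgactgggtctacta
Ihh and Dhh: gctgcgggccgggccg
Scube2 and Scube3: gtcaacaacggaggctgcgac
The ligand runs were 17, 17 and 16 bases long, and among the Scube genes the runs were 18 to 21 bases long. Over all GENCODE M21 transcripts of each gene, no stretch longer than 21 bases was the same in 2 ligands or in 2 Scube genes. Other pairs of members were not compared. A different overlap touched Dhh: 546 bases of its merged exons were also exon of Rhebl1, on the same strand, which was at 7.81 to 13.2 TPM, above Dhh itself. How the authors counted reads there is not given in the sources used here, so the level of Dhh is uncertain. Shh shared 446 exon bases with an antisense transcript, 9530036O11Rik, which was at 0.015 to 0.068 TPM.

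Ihh was the member whose groups lay furthest apart, and Dhh is its paralog of similarly low level, so the RefSeq sequences around their starts are shown (build GRCm38.p6, 250 bases before to 50 bases after the start, read on the minus strand). Capitals mark GGGTGG, which makes up 6 of the 9 bases of TGGGTGGTC, the consensus bound by GLI proteins.
Ihh, chr1:74951623-74951922: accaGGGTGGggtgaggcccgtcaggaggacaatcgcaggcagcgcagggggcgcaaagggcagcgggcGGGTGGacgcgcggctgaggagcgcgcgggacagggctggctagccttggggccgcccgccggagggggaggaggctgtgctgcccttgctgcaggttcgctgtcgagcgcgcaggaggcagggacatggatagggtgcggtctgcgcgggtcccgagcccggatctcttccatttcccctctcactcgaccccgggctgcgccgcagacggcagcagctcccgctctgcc
Dhh, chr15:98898491-98898790: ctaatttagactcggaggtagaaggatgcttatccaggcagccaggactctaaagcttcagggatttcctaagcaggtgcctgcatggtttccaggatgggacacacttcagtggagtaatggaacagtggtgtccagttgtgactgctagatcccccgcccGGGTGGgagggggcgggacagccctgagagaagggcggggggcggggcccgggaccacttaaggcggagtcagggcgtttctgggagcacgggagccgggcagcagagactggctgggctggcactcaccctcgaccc
GGGTGG occurred 2 times in the Ihh window and 1 time in the Dhh window, and 2 times, on the other strand, in that of Scube1 (searched on both strands). It was in 31.5% of the 32851 promoter windows of the same length. The whole TGGGTGGTC, in 0.253% of those windows, was in none of the windows of the 7 members that had one. A match of letters is a description and not a bound site.

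Levels differed widely between the 8 genes. TPM is scaled by gene length, so they can be set side by side: Scube3 was highest, then Scube1, Shh, Disp1, Scube2, Hhat, Ihh and Dhh, by the mean over 8 embryos. Scube3 exceeded Scube1 in 8 of 8 embryos, without overlap within either group. Scube1 exceeded Shh, and Shh exceeded Disp1, in 7 of 8 embryos each, the exceptions being mutant 4 for the first pair and mutant 3 for the second. Disp1 exceeded Scube2 in 8 of 8 embryos although their ranges overlapped in both groups. Scube2 was below Hhat in mutant 1 alone, and Hhat was below Ihh in mutant 4 alone. Ihh exceeded Dhh in 6 of 8 embryos, in all mutants but not in WT 2 and WT 4. Recovered read numbers ran from 5743 to 7806 per library for Scube3, from 586 to 1413 for Shh, from 31 to 164 for Ihh and from 21 to 80 for Dhh. Counting error was 7.81% to 18.0% of the value for Ihh and 11.2% to 21.8% for Dhh, against 2.66% to 4.13% for Shh.

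**Figure D1:**
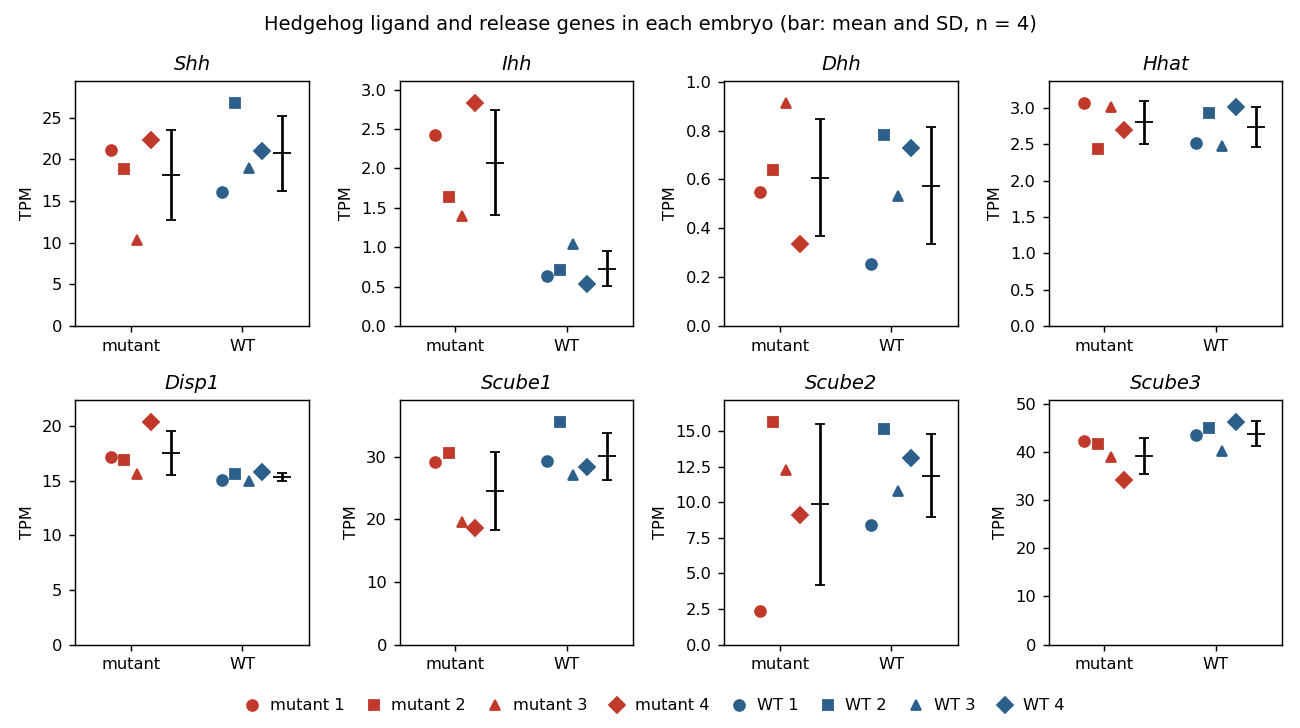
TPM of each of the 8 genes (vertical axes, each from 0) in the 4 mutant and 4 WT embryos, 1 symbol per embryo, with the mean and SD of each group as a bar. All 4 mutants lie above all WT embryos for Ihh, and in the other genes the groups overlap.

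None of the 7 tested members passed the test between mutant and WT embryos (limma on log2(TPM + 1), Benjamini-Hochberg adjusted p under 0.05), and the share called among all 13596 genes was 0%. At an unadjusted p under 0.05, the only member was Ihh, higher in mutants, against 5.55% of all genes higher and 8% lower (754 and 1088 genes, or 1220 and 939 with median-ratio scaling). Ihh was also the only tested member whose groups did not overlap, against 7.46% of all genes in either direction. Limma voom on recovered reads (a setting added once the files had been seen) and an exact permutation test per gene called 0 genes each (2352 and 1014 at an unadjusted p under 0.05, over 15387 and 13596 genes, and 1842 of 13596 in the test on TPM). Replicates are embryos, so the spread between them includes stage, dissection and litter.

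Ihh was the ligand with the largest difference. Ihh (chromosome 1, 74945315 to 74951672, build GRCm38) was at 2.42, 1.64, 1.40 and 2.83 TPM in mutants 1 to 4, and at 0.629, 0.707, 1.04 and 0.533 TPM in WT 1 to 4. The lowest mutant lay above the highest WT embryo, WT 3. The mean was 2.07 ± 0.666 TPM in mutants and 0.728 ± 0.223 TPM in WT embryos (SD, n = 4 each), a ratio of 2.84. Higher values in every mutant than in every WT embryo were seen for 3.63% of all genes tested. The counts behind these values gave an exact 95% Poisson interval of 1.12 to 1.73 TPM in mutant 3, the lowest mutant, and of 0.797 to 1.35 TPM in WT 3, so the counting error of these nearest embryos overlapped.

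The log2 fold change of Ihh was 0.81 ± 0.17 (SE; 95% interval 0.43 to 1.20; limma adjusted p = 0.281). The exact permutation p of 0.0286 is the smallest that 4 embryos against 4 allow. Since 1 is added to TPM, this value understates the change of so low a gene: with 0.1 added it was 1.37, and with voom on recovered reads 1.49. It stayed between 0.70 and 0.92 when 1 embryo at a time was left out, with limma adjusted p between 0.121 and 0.564. Ihh reached 1 TPM in 5 embryos, of which 4 were the mutants, so it was in the tested set because of the group in which it was higher. In the fit of all 23993 genes with a value, which has no such filter, its limma adjusted p was 0.385.

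Transcripts of yolk sac endoderm, a known source of Ihh, were also unevenly present. All 15 genes of that list were tested, none passed the test, 15 had a fold change above 0, and their median log2 fold change was 2.71, against -0.04 for all genes tested. Their summed level was 148.7 to 1372 TPM in mutants and 16.3 to 264.4 TPM in WT embryos, and none of the 15 was at 0 throughout. The order of embryos was in part the same as for Ihh. Mutants 1, 2 and 3 fell in the same order in both, with yolk sac scores, as mean log2(TPM + 1), of 5.64, 5.03 and 3.42. Among WT embryos, WT 3 and then WT 2 were highest in both. Mutant 4, with the highest Ihh, had the lowest yolk sac score of the mutants, 2.60. WT 3, at 3.46, lay above mutants 3 and 4 in that score and below both in Ihh. In a fit with this score as a term, the log2 fold change of Ihh was 0.70 (limma adjusted p = 0.268). The unadjusted limma p of Ihh was 0.0254 in that fit, against 0.000902 without the term. Genes at an unadjusted p under 0.05 numbered 2338 with the term and 1842 without it, which bears on the adjusted p. In bulk tissue, more cells that make a transcript and more of it per cell cannot be told apart.

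Set against that list, Ihh had an estimate of the opposite sign. The score of the list differed by 2.54 between mutants and WT embryos, against 0.81 for Ihh. The sign therefore follows from the yolk sac genes and is no separate result about Ihh. The log2 level of Ihh minus the mean log2 level of the yolk sac genes was -3.86, -3.63, -2.16 and -0.67 in mutants 1 to 4, and -0.11, -0.56, -2.43 and -0.32 in WT 1 to 4. The difference between the group means was -1.72 (exact permutation test, two-sided, p = 0.114 and 0.229 after adjustment for both relative values). The groups overlapped through WT 3, which lay below mutants 3 and 4, and the difference was larger than the SD of either group, 1.48 in mutants and 1.07 in WT embryos, but did not pass the exact test.

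Gut and pharyngeal endoderm, another known source, had a smaller median difference. Of its 11 tested genes, none past the test, 8 had a fold change above 0, with a median log2 fold change of 0.18. One of them was Foxa3, a forkhead transcription factor of endoderm, at 2.05, 1.11, 1.21 and 1.83 TPM in mutants 1 to 4 and 0.366, 0.846, 0.756 and 0.489 TPM in WT 1 to 4. As for Ihh, mutants 1 and 4 were the highest and the groups did not overlap. Foxa3 reached 1 TPM in the mutants alone, so it too was in the tested set because of the group in which it was higher. Groups without overlap were seen for 3.63% of all genes tested with mutants higher and for 3.82% with mutants lower. Nkx2-1, of the same list and also a marker of ventral forebrain, lay the other way, with every mutant below every WT embryo (log2 fold change -1.02, limma adjusted p = 0.281). Foxa3 was also among the 3 tested genes whose levels followed Ihh most closely over the 8 embryos, by the mean absolute difference between log2(TPM + 1) values centred on each gene's mean. Podxl, a cell-surface sialomucin, differed from Ihh by 0.112 on this measure, Foxa3 by 0.127 and Smtnl2 by 0.129. Likeness over 8 embryos does not imply shared cells.

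The genes on either side of Ihh were lower in mutants by estimate. Nhej1, 15.5 kb away and encoding a factor of DNA end joining, was at 12.5 ± 0.757 TPM in mutants and 14.5 ± 0.600 TPM in WT embryos (SD, n = 4 each), with every mutant below every WT embryo. Its log2 fold change was -0.19 (limma adjusted p = 0.329). Cdk5r2, 87.6 kb away on the other side, was at 2.02 ± 0.958 TPM in mutants and 3.73 ± 1.72 TPM in WT embryos, and its groups overlapped. Both were picked by position alone, as the nearest tested genes.

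Shh (chromosome 5, 28456815 to 28467256) was the main ligand by level in every embryo. It was at 21.1, 18.9, 10.3 and 22.3 TPM in mutants 1 to 4, and at 16.1, 26.7, 19.0 and 21.03 TPM in WT 1 to 4. Mutant 3 was the lowest of all 8, and the other mutants lay within the WT range. The mean was 18.1 ± 5.42 TPM in mutants and 20.7 ± 4.50 TPM in WT embryos (SD, n = 4 each), and the log2 fold change was -0.21 ± 0.23 (SE; 95% interval -0.73 to 0.31; limma adjusted p = 0.669). Without mutant 3 it turned to 0.02.

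Foxa2, a transcription factor of floor plate, notochord and endoderm, was the tested gene most like Shh over the 8 embryos, with a mean absolute difference of 0.128. It was at 11.9, 11.1, 5.31 and 14.1 TPM in mutants 1 to 4, and at 9.82, 15.8, 13.2 and 9.04 TPM in WT 1 to 4. As for Shh, mutant 3 was lowest and WT 2 highest. Next were Zbtb42, at 0.153, and Cplx2, at 0.155.

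Floor plate and notochord genes were taken as a list. Of the 10 in the table, all tested, 7 had a fold change below 0, against 8472 of all 13596 genes, with a median log2 fold change of -0.26 and none past the test. Noto, a notochord transcription factor, was at 0.0334, 0.995, 2.50 and 2.33 TPM in mutants 1 to 4 and 4.99, 2.93, 4.71 and 1.93 TPM in WT 1 to 4. It was lowest in mutant 1, which had the third highest Shh of the 8. Ntn1, which encodes the guidance cue netrin of the floor plate, was lowest in mutant 3 and highest in WT 2, as Shh was, at 34.0 and 60.3 TPM. The log2 level of Shh relative to the mean of this list was 1.14 ± 0.402 in mutants and 1.09 ± 0.294 in WT embryos (SD, n = 4 each). The difference of 0.05 was smaller than either SD (exact permutation test, two-sided, p = 0.8 before and after adjustment). It was -0.07 without mutant 1, -0.01 without mutant 4 and -0.06 without WT 1.

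Dhh (chromosome 15, 98891152 to 98898540) did not reach 1 TPM in any embryo. It was at 0.547, 0.637, 0.911 and 0.334 TPM in mutants 1 to 4, and at 0.254, 0.784, 0.531 and 0.727 TPM in WT 1 to 4. The highest and the next-to-lowest value both came from mutants, so that the groups were mixed. In a fit of all 23993 genes with a value, its log2 fold change was 0.03 ± 0.14 (SE; 95% interval -0.29 to 0.35; limma adjusted p = 0.942). Markers of neural crest and glial precursors, from which Schwann cells come, summed to 58.8 to 98.0 TPM in mutants and 65.4 to 74.9 TPM in WT embryos. The 6 tested genes of those 7 had a median log2 fold change of 0.05.

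The 3 ligands together amounted to 20.8 ± 5.76 TPM in mutants and 22.0 ± 4.70 TPM in WT embryos (SD, n = 4 each). Shh was 81.7% to 89.2% of this sum in mutants and 92.3% to 94.8% in WT embryos. Ihh was 10.1%, 7.77%, 11.1% and 11.1% in mutants 1 to 4, and 3.71%, 2.50%, 5.08% and 2.39% in WT 1 to 4. Its share in mutant 3 was as high as in mutant 4 although its level was the lowest of the mutants, since Shh was low there. The shares restate the levels above and were not tested.

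**Figure D2:**
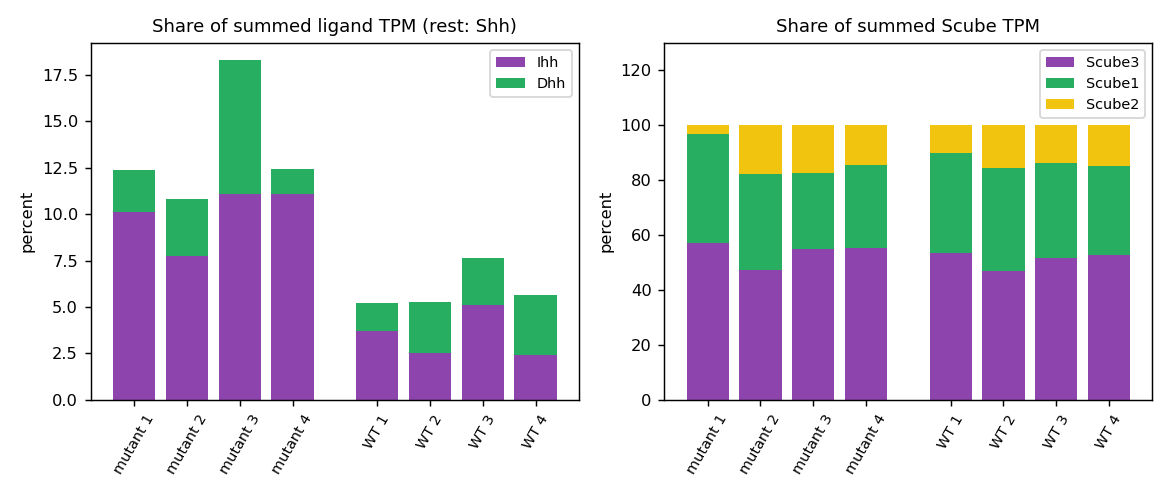
Percent of the summed TPM of the 3 ligands held by Ihh and Dhh (left, the rest being Shh) and of the 3 Scube genes held by each (right), 1 bar per embryo, mutants left of WT. The Ihh share is 7.77% to 11.1% in mutants and 2.39% to 5.08% in WT embryos, and Scube2 holds 3.23% of the Scube sum in mutant 1.

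Hhat (chromosome 1, 192496711 to 192771223) was at 3.06, 2.44, 3.01 and 2.69 TPM in mutants 1 to 4, and at 2.51, 2.94, 2.48 and 3.02 TPM in WT 1 to 4. Embryos of both groups were interleaved. The mean was 2.80 ± 0.292 TPM in mutants and 2.74 ± 0.280 TPM in WT embryos (SD, n = 4 each), and the 95% interval of the log2 fold change, -0.21 to 0.26, included 0 (estimate 0.02 ± 0.11, SE; limma adjusted p = 0.927). Eid1, Saraf and Srp54a were the tested genes most like it, at mean absolute differences of 0.0308, 0.0321 and 0.0403.

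Disp1 (chromosome 1, 183086266 to 183221522) varied little among WT embryos and more among mutants. It was at 17.2, 16.9, 15.6 and 20.4 TPM in mutants 1 to 4, and at 15.1, 15.6, 15.01 and 15.8 TPM in WT 1 to 4. Of the mutants, 3 lay above every WT embryo, and mutant 3 lay within the WT range. The coefficient of variation was 11.6% in mutants and 2.44% in WT embryos. The log2 fold change was 0.17 ± 0.09 (SE; 95% interval -0.02 to 0.37; limma adjusted p = 0.396), and 0.10 without mutant 4. Its closest match was Anpep, aminopeptidase N, at a mean absolute difference of 0.0218, followed by Chp1 and Kank2.

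Furin, a protease that cuts Disp1 as part of its activation, was higher in each mutant than in each WT embryo. It was at 23.9, 18.0, 20.0 and 20.6 TPM in mutants 1 to 4 and 16.1, 17.4, 16.7 and 17.0 TPM in WT 1 to 4. Its log2 fold change was 0.27 ± 0.09 (SE), and it did not pass the test (limma adjusted p = 0.299). Furin also cuts many other precursor proteins, such as growth factors.

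**Figure D3:**
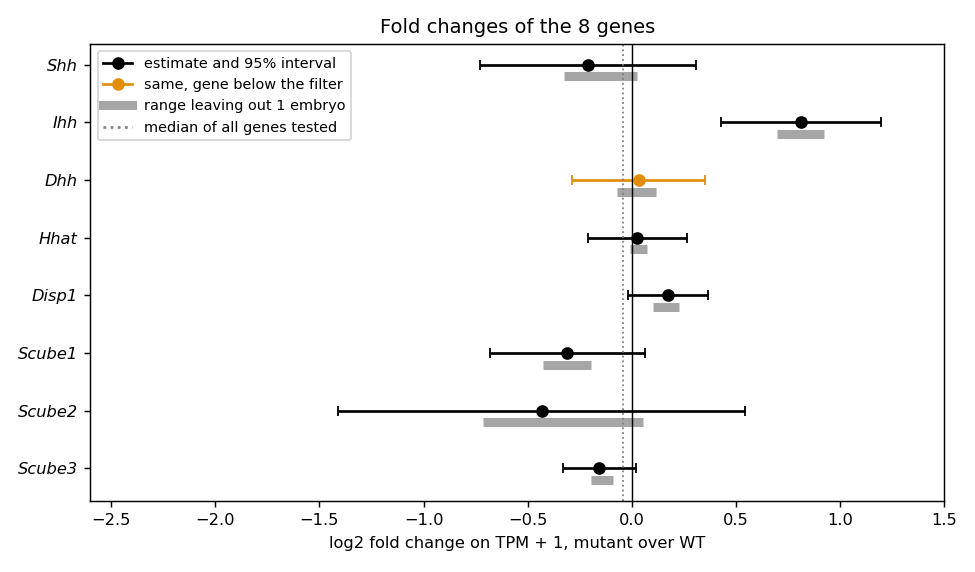
Log2 fold change of each gene on the TPM + 1 scale, mutant over WT (horizontal axis), with its 95% interval (thin bars) and its range when 1 embryo is left out (grey bars). The interval of Ihh, 0.43 to 1.20, lies above 0 and those of the other genes include it.

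The 3 Scube genes had lower means in mutants. Scube1 and Scube3 were lowest in mutants 3 and 4, and Scube2 in mutant 1. Their summed level was 73.6 ± 10.8 TPM in mutants and 85.7 ± 7.83 TPM in WT embryos (SD, n = 4 each). Scube3 (chromosome 17, 28142141 to 28174854) was at 42.2, 41.7, 38.8 and 34.1 TPM in mutants 1 to 4, and at 43.5, 45.0, 40.2 and 46.2 TPM in WT 1 to 4. Mutants 3 and 4 lay below every WT embryo, and mutants 1 and 2 above WT 3. The log2 fold change was -0.16 ± 0.08 (SE; 95% interval -0.33 to 0.02; limma adjusted p = 0.399), and -0.06 without mutants 3 and 4. Its closest matches were Map3k10, Trappc6b and Ccdc189, at mean absolute differences of 0.028, 0.029 and 0.030.

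Scube1 (chromosome 15, 83604999 to 83725021) was at 29.1, 30.6, 19.7 and 18.7 TPM in mutants 1 to 4, and at 29.3, 35.6, 27.1 and 28.4 TPM in WT 1 to 4. Mutants 3 and 4 stood apart below all other embryos, and mutants 1 and 2 lay among the WT values. The log2 fold change was -0.31 ± 0.17 (SE; 95% interval -0.68 to 0.06; limma adjusted p = 0.415). Without mutants 3 and 4 it was -0.0035, and in a fit with the yolk sac score as a term it was -0.60 (limma adjusted p = 0.268).

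Mutants 3 and 4 were also low in host genes of small nucleolar RNAs, non-coding transcripts whose introns give rise to these RNAs. All 8 such genes were tested and had a fold change below 0. Their score was 5.93, 6.12, 5.05 and 4.98 in mutants 1 to 4, and 6.33, 6.08, 6.15 and 6.12 in WT 1 to 4. They were listed as a possible sign of RNA quality, and were already known to stand apart in 2 libraries of these data. Their low values in mutants 3 and 4 are therefore not an independent result. Their summed level ranged from 332.0 to 759.6 TPM in mutants and from 672.8 to 805.9 TPM in WT embryos. The part of RNA quality in the values of Scube1 and Scube3 was not tested. The 3 genes most like Scube1 (Ccdc66, at a mean absolute difference of 0.0452, Tfcp2, at 0.0474, and Glb1l, at 0.0484) were likewise lowest in mutants 3 and 4. Ccdc66, for example, was at 8.29 and 7.77 TPM there and at 11.5 to 14.2 TPM in the other embryos.

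Scube2 (chromosome 7, 109798676 to 109865679) had the largest coefficient of variation of the 8 genes among mutants, 57.4%, and one of 24.6% among WT embryos. It was at 2.38, 15.7, 12.3 and 9.13 TPM in mutants 1 to 4, and at 8.39, 15.2, 10.8 and 13.1 TPM in WT 1 to 4. Mutant 1 lay far below every other embryo, with 185 reads against 654 to 1184 in the others. The counting error of that embryo was 7.35% of its value. The log2 fold change was -0.43 ± 0.43 (SE; 95% interval -1.41 to 0.54; limma adjusted p = 0.641), and 0.05 without mutant 1.

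Genes of neural progenitors were lowest in the same embryo. Their score was 4.91, 6.14, 5.67 and 5.61 in mutants 1 to 4 and 5.83, 6.32, 5.95 and 5.96 in WT 1 to 4. All 8 genes of that list were tested, and all had a fold change below 0, with a median log2 fold change of -0.37. The tested genes most like Scube2 were Fgfbp3, at a mean absolute difference of 0.203, Celsr2, a cadherin of planar cell polarity, at 0.204, and Nell2, which encodes a secreted glycoprotein of neural tissue, at 0.23. Celsr2 was at 12.9 TPM in mutant 1 and at 21.6 to 37.7 TPM elsewhere. Mutant 1 also had the highest score of heart muscle genes, 7.34. The other mutants had 6.31 to 6.61 and WT embryos 5.89 to 6.38, and of those 9 genes, all tested, 8 had a fold change above 0. Their part in the value of Scube2 was not tested.

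**Figure D4:**
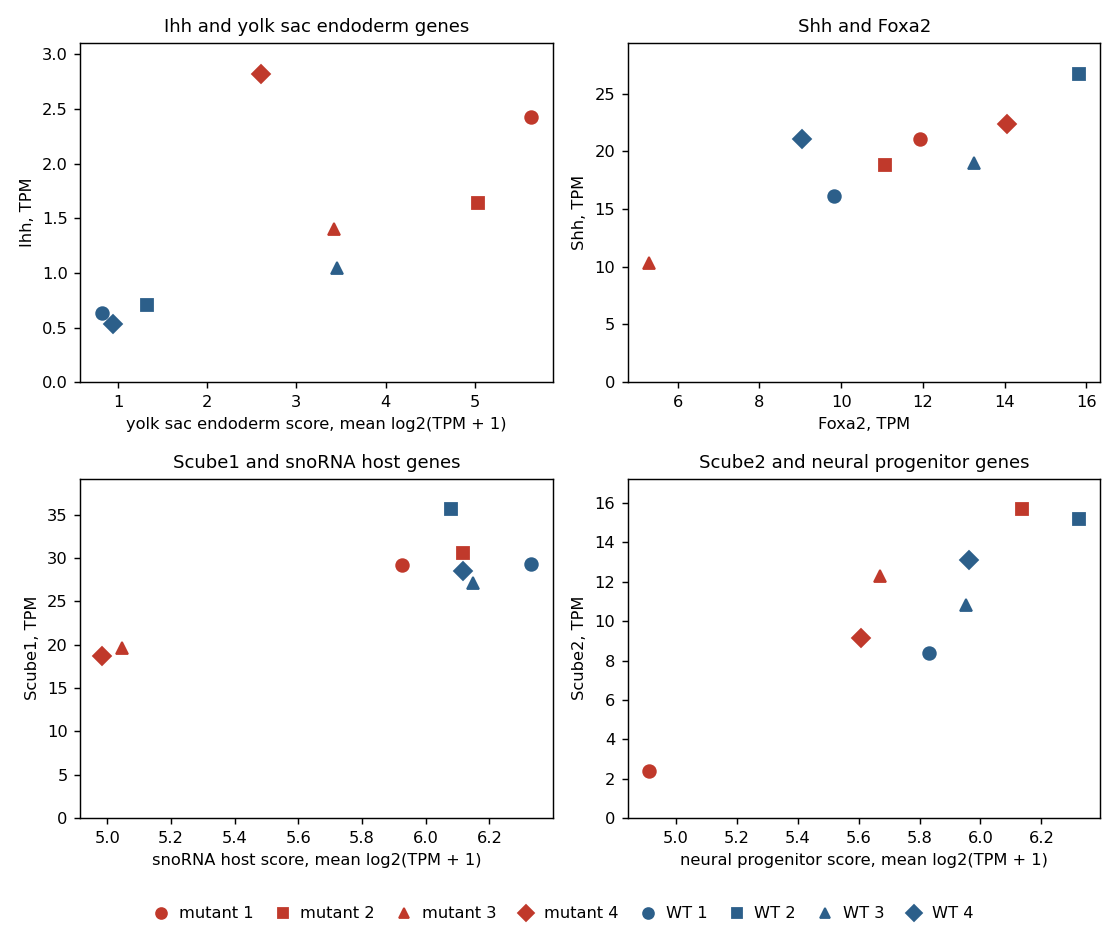
Levels in TPM (vertical axes) of Ihh, Shh, Scube1 and Scube2 against the yolk sac endoderm score, the TPM of Foxa2, the snoRNA host score and the neural progenitor score (horizontal axes), with 1 symbol per embryo. Mutant 4 combines the highest Ihh, 2.83 TPM, with a yolk sac score of 2.60. For Scube1, mutants 3 and 4 are apart from the rest in both measures. The snoRNA host genes were already known to stand apart in 2 libraries when they were listed. For Scube2, mutant 1 is apart.

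Beyond the 8 members, other genes of lipid addition, matrix passage and release were listed. Of 18 such genes 15 were tested, 10 with a fold change above 0 and 5 below, none past the test, and with a median log2 fold change of 0.08. Gpc6, a glypican, one of the heparan sulfate proteoglycans that hold ligands at the cell surface, was at 14.96 ± 1.32 TPM in mutants and 12.6 ± 0.797 TPM in WT embryos (SD, n = 4 each; limma adjusted p = 0.324). Every mutant lay above every WT embryo for Gpc6. Gpc2, a glypican of the developing nervous system, was at 33.7, 41.0, 17.0 and 19.5 TPM in mutants 1 to 4, and at 40.7, 41.8, 32.6 and 46.2 TPM in WT 1 to 4. As for Scube1, mutants 3 and 4 were the low ones. Among relatives of the members, Disp3 was at 1.55 ± 0.719 TPM in mutants and 2.21 ± 0.575 TPM in WT embryos, and Disp2 (0.409 to 0.874 TPM) and Hhatl (at most 0.0821 TPM) were too low to be tested.

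For these lists of the pathway, and for the tissue lists above and below, the counts of sign stand against all 13596 genes tested. Of these, 37.7% had a fold change above 0. On the receiving side, 8 of 8 receptor and coreceptor genes were tested, 3 with a fold change above 0 and 5 below, none past the test, and with a median log2 fold change of -0.09. Lrp2, an endocytic receptor that binds Shh and is also abundant in yolk sac endoderm, was at 17.3 ± 2.06 TPM in mutants and 13.2 ± 2.54 TPM in WT embryos (SD, n = 4 each; log2 fold change 0.37, limma adjusted p = 0.317). Boc, a coreceptor, was at 26.6 ± 6.40 TPM in mutants and 32.15 ± 3.50 TPM in WT embryos. Of the 16 transduction genes, 8 had a fold change above 0 and 8 below, with a median of 0.0042. Of the 10 target genes 3 were above 0 and 7 below, with a median log2 fold change of -0.11, none past the test. Nkx2-2, a transcription factor of the ventral neural tube, was at 2.23, 2.96, 1.38 and 2.34 TPM in mutants 1 to 4, and at 2.48, 5.06, 4.25 and 4.21 TPM in WT 1 to 4. The groups overlapped only through WT 1 (log2 fold change -0.63, limma adjusted p = 0.300). Gli1, the transcription factor most used as a readout of the pathway, was at 23.2, 28.9, 10.7 and 19.5 TPM in mutants 1 to 4, and at 29.5, 30.1, 28.7 and 25.8 TPM in WT 1 to 4. Mutant 3, the embryo with the lowest Shh, also had the lowest Gli1. Mutant 4 had the next lowest Gli1, although its Shh, 22.3 TPM, was above that of all embryos but WT 2. The log2 fold change of Gli1 was -0.53 ± 0.24 (SE; limma adjusted p = 0.372). Mutants 3 and 4 were also the embryos with low host genes of small nucleolar RNAs. Neither the part of RNA quality in Gli1 nor a link between Shh and Gli1 was tested. Foxf1, a target in the mesenchyme around the gut, next to endoderm that makes Shh and Ihh, was at 38.4, 21.7, 23.0 and 47.8 TPM in mutants 1 to 4, and at 29.2, 21.3, 25.02 and 20.1 TPM in WT 1 to 4. Mutants 1 and 4, the pair with the highest Ihh, were the highest embryos in Foxf1. The other mutants lay within the WT range (log2 fold change of Foxf1 0.38, limma adjusted p = 0.472). In no other listed target were mutants 1 and 4 the highest pair. Ptch1, for example, was at 29.7 TPM in mutant 1 and 42.07 TPM in mutant 4, against 31.0 to 42.05 TPM in WT embryos. A response of Foxf1 to Ihh was not tested.

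**Figure D5:**
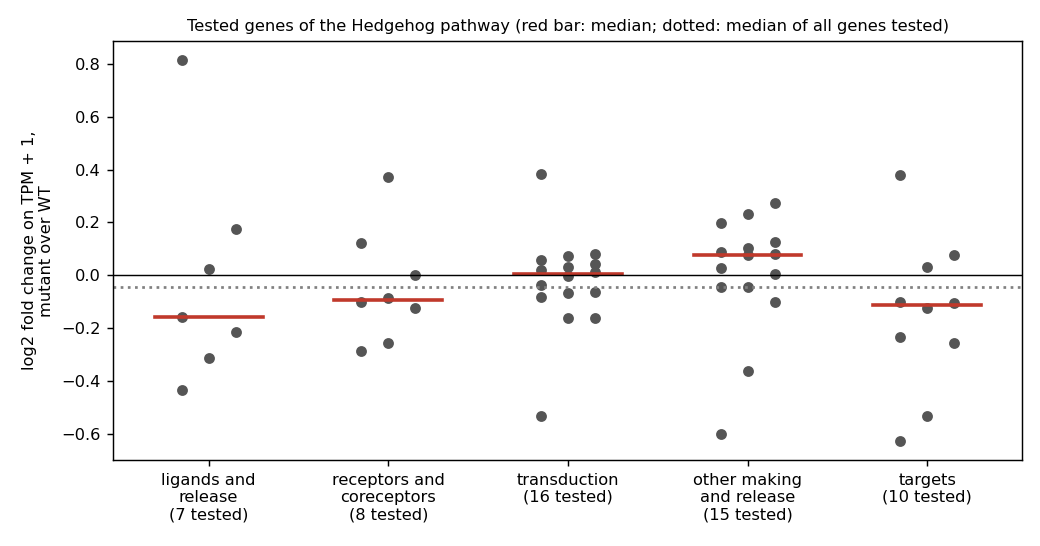
Log2 fold change on the TPM + 1 scale, mutant over WT (vertical axis), of each tested gene in 5 lists of the Hedgehog pathway, with the list's median in red and the median of all genes tested, -0.04, dotted. Ihh is the highest point of all 5 lists, at 0.81, and the medians lie between -0.16 and 0.08.

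No listed gene of heart, blood, neural, somite or endothelial cells was at 0 throughout, a bar too low to test what the samples contained. Genes of trophoblast and decidua summed to 38.2 to 342.9 TPM in mutants and 26.8 to 54.8 TPM in WT embryos, and 5 of 6 tested had a fold change above 0. Genes of ventral forebrain and eye, a region where Shh acts and is made, had a fold change below 0 for 9 of 10 tested, with a median log2 fold change of -0.56 and none past the test. For 5 of these 10, every mutant lay below every WT embryo, against 3.82% of all genes tested. Of these 5, Vax2 reached 1 TPM in WT embryos alone, so it was in the tested set because of the group in which it was higher. Posterior limb bud genes, another site of Shh, were below 0 for 5 of 8 tested, with a median of -0.14. The share above 0 was 37.5%, near the 37.7% of all genes tested.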

How the data were processed

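RNA was sequenced from 8 whole embryos, with values as TPM in the table the authors deposited, 1 row per gene symbol and a total of 1000000 in each library. The genome was GRCm38 (mm10), per the submitters' processing notes. Which aligner, counter, annotation and strand setting were used is not given. All 8 columns were matched to samples by name, and 0 were left over.

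Genotypes were compared on log2(TPM + 1) with limma (version 3.58.1, under R 4.3.3) and an empirical Bayes trend, over the 13596 genes with at least 1 TPM in at least 4 embryos, two-sided, with Benjamini-Hochberg adjustment over all of them and a threshold of 0.05. Exact permutation tests used all 70 assignments. The fit was tested on simulated data. Read numbers were recovered from the steps of TPM with merged exon lengths of GENCODE M21. They were whole within 0.02 reads in all libraries for 97.7% of 22992 genes (those with a value and a single annotation), the 8 members among them. The genes whole in a given library, counted for each library by itself, held 57770965 to 59268230 reads. Intervals from reads cover counting error only. The score of a list in an embryo is the average of its genes on that log2 scale. Promoter windows are from RefSeq, GRCm38.p6, and matched 7 of 8 members.

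Members, lists, tests and alternatives were chosen with earlier results of these data known, except limma voom on recovered reads, which was added after the files were seen. Genes named are the members, up to 3 genes of smallest p per list with any receptor or target, and the 3 most alike per member, leaving out unnamed loci. Neighbours were chosen by position, and Ntn1, Disp2, Disp3 and Hhatl were named after their values were seen. The labels number embryos 1 to 4 in each genotype. Deviations of same-numbered embryos from their group means correlated at -0.062, 0.04, -0.194 and -0.245, so no sign of pairing by number was seen. With litters not recorded, these correlations cannot exclude such pairing.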

Additional observations from a re-analysis of the deposited data

How the results depend on the processing

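No member crossed the threshold in any of the alternatives run, which changed the pseudocount, filter, scaling, weights, test, covariate or embryos. Ihh, Disp1, Scube1 and Scube3 kept their direction in 18 of 18 alternatives each. In a fit with the yolk sac score as a term Dhh turned to -0.022 and Scube2 to 0.058, and the cause was not tested. Leaving out 1 embryo at a time, the log2 fold change ranged from -0.33 to 0.023 for Shh, from -0.073 to 0.12 for Dhh, from -0.0088 to 0.072 for Hhat and from -0.71 to 0.054 for Scube2, and the difference of Shh relative to floor plate and notochord genes from -0.071 to 0.24. The difference of Ihh relative to yolk sac genes stayed below 0, at -2.36 to -1.30. Genes called over the whole table numbered 3 without mutants 3 and 4 (Gsn, Prap1 and Gpx3, all higher) and 0 to 1 when 1 embryo was left out (Gm28230, lower, without mutant 2). These 4 genes were named after their values were seen. With the replicate block 0 genes were called and the adjusted p of Ihh was 0.307 and that of Scube1 0.327, so it changed no call. Median-ratio scaling moved the split at an unadjusted p under 0.05 to 1220 higher and 939 lower, against 754 higher and 1088 lower, and the log2 fold change of Ihh to 0.84. Depth limits Ihh and Dhh, with 31 to 164 and 21 to 80 reads.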
